A study of Mus musculus with 6 samples.

Results

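Actc1, the gene of cardiac muscle alpha-actin, had the largest rise when mouse epiblast stem cells (EpiSCs) spent 1 day in a neural plate culture condition, among genes well above background on all EpiSC and day 1 arrays. Around it, 10 contractile and cytoskeletal genes known as targets of serum response factor (SRF) are described: Actc1, Acta2, Acta1, Actg2, Tagln, Cnn1, Cnn2, Tpm1, Myl9 and Srf itself. They were chosen by name because Actc1 led the day 1 rises, so the day 1 values of all 10 are given as a description, with no test. They are 10 of 20270 genes named on the array and 16 of 55646 probes, and all 10 were among the 14768 genes tested. Of these, 9 genes with 15 probes were well above background on all 6 arrays, and Actg2 was not.

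EpiSCs are pluripotent cells taken from the epiblast after implantation. These were of mouse strain 129/Sv, with no transgene or deletion named in the labels. They were kept in epiblastic maintenance culture (EpiSC, day 0) or moved to a neural plate condition, in which NPC1 stayed for 1 day and NPC2 for 2 days. Each group has 2 cultures, A and B, grown from a shared seed culture. The p-values therefore reflect nothing but the spread between duplicates, part of which may be technical. The 6 total RNA samples were measured on 6 Agilent 1-colour arrays of a single slide. The labels state the cell type and condition, and the arrays bore marker genes of both. All 7 epiblast and all 7 neural plate markers listed were well above background on every array. Pou5f1, a pluripotency factor gene, had scaled intensities of 29040 and 32410 in EpiSC, 17140 and 18390 in NPC1, and 4899 and 4810 in NPC2. Sox1, an early neural plate gene, had 48.2 and 44.3, then 315 and 308, then 2469 and 2407. By limma, 5 of the 7 epiblast markers were lower and 2 higher in NPC2 than in EpiSC, and 7 of 7 neural plate markers were higher. From NPC1 to NPC2, 5 epiblast markers were lower and 2 higher, and 6 neural plate markers were higher and 1 lower. Of all tested genes, 28.3% were higher and 40.7% lower in the first comparison, and 20.8% and 26.6% in the second. A scaled intensity is the deposited processed intensity brought to a common 75th percentile on every array, and values are given in the order culture A and culture B. Between 58.15% and 61.06% of non-control spots were well above background on an array and 0 were saturated. Precision is limited by having 2 arrays a group, and log2 changes had a median standard error (SE) of 0.0678.

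SRF is a transcription factor that binds, as a dimer, a DNA element called the CArG box. Its coactivators of the myocardin family, among them Mrtfa and Mrtfb, are held by monomeric actin and act on muscle and cytoskeletal genes when actin polymerises. The ternary complex factors Elk1, Elk3 and Elk4 instead couple SRF to ERK signalling and to immediate early genes. Alpha-actins, transgelin, calponin and myosin light chains are best known from heart, skeletal and smooth muscle, and several are also made in embryonic and cultured non-muscle cells.

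The sequences just before the start of 5 of the genes are shown because they hold CArG boxes, the elements through which SRF is known to act, or stretches like them. Cnn2 is included for having a CArG box beside a small day 1 change. They are from RefSeq on GRCm38.p6, each the 210 bases before the annotated start, 5′ to 3′ on the gene's strand. Actc1 lies at chr2:114052876-114053085 (minus strand), Acta1 at chr8:123894776-123894985 (minus), Acta2 at chr19:34255374-34255583 (minus), Cnn2 at chr10:79988390-79988599 (plus) and Srf at chr17:46556163-46556372 (minus). Capitals mark CArG boxes and CArG-like stretches, the latter with a single G or C in the A and T core.
Actc1: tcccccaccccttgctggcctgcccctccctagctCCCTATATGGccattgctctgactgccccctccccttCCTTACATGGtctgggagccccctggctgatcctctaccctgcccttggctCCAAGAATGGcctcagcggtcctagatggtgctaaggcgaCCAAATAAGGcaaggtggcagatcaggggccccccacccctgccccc
Acta1: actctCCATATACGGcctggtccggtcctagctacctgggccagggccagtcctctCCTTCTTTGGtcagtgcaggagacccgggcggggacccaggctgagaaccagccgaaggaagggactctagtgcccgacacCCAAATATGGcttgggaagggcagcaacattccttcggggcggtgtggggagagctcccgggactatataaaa
Acta2: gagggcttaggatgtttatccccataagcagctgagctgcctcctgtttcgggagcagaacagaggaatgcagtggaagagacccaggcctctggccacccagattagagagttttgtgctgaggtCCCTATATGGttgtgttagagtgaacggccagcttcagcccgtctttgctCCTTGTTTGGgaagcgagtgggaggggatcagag
Cnn2: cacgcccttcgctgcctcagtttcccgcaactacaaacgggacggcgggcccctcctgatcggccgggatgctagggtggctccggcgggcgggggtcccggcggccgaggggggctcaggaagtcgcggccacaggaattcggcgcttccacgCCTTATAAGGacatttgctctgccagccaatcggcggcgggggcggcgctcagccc
Srf: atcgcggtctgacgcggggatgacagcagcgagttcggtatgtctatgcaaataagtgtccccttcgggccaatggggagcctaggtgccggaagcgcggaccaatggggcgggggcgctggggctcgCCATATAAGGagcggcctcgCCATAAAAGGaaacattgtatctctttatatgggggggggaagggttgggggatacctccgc

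RefSeq windows from 250 bases before to 50 bases after the start were matched for 8 of the 10 genes, without Actg2 and Tagln. A CArG box lay in 5 of the 8 windows (Actc1, Acta1, Myl9, Cnn2 and Srf), against 1.63% of 32851 windows of the same length. Both strands were covered, since the CArG pattern is its own reverse complement. Its first base lay 47 bases before the start in Actc1, 73 in Acta1, 161 in Myl9 and 56 in Cnn2, and Srf had boxes at 82 and 62. A CArG-like stretch, which does not overlap a CArG box by construction of the pattern, lay in 4 windows (Actc1, Acta1, Acta2 and Myl9), against 8.5% of all windows. Acta2 had these at 84 and 34 bases before the start and no CArG box in its window. The motif CATTCC, read on either strand and known as the M-CAT element of muscle genes, lay in 3 windows (Acta1, Acta2 and Tpm1), against 14.7% of all windows. The Cnn1 window held none of these patterns. The genes were listed as known SRF targets, so nothing is read from the contrast of their CArG boxes with all windows. A match is a description of these letters only.

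The 4 muscle actin genes were all higher on both days than in EpiSC, with different courses after day 1. Actc1 had scaled intensities of 86.7 and 105 in EpiSC, 3999 and 4224 in NPC1, and 1397 and 1414 in NPC2. The 3 groups did not overlap, NPC1 was highest, and NPC2 stayed far above EpiSC. Its day 1 log2 change was 5.43 ± 0.10 (SE, n = 2 arrays a group here and in every value that follows), a 43.09-fold difference. The next genes in the order of day 1 rises were Tal2 at 19.44-fold and Irx3 at 18.02-fold, both transcription factor genes. NPC2 was 14.74-fold above EpiSC (log2 change 3.88, adjusted p = 1.4e-05 in limma) and 2.92-fold below NPC1 (log2 change -1.55, adjusted p = 0.000379). These comparisons share arrays with the day 1 contrast that chose Actc1, as do those of the other genes. With normexp background correction, which adds an offset of 50 to every spot, the rises above EpiSC were 25.2-fold on day 1 and 8.93-fold on day 2.

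Acta1, the skeletal muscle alpha-actin gene, ran in the same order at lower contrast. Its scaled intensities were 100.1 and 115 in EpiSC, 655 and 633 in NPC1, and 453 and 442 in NPC2, with no overlap between groups. The day 1 change was 6.01-fold. On day 2 it was 4.18-fold above EpiSC (adjusted p = 3.41e-05) and 1.44-fold below NPC1 (adjusted p = 0.00491). With normexp the rises above EpiSC were 3.92-fold and 2.75-fold.

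Acta2, the smooth muscle alpha-actin gene, was the exception among the 10 in its timing. It had 330.1 and 384 in EpiSC, 1214 and 1133 in NPC1, and 2257 and 2031 in NPC2. Every array of a later day was above every array of an earlier one. The day 1 change was 3.29-fold. NPC2 was 6.01-fold above EpiSC (log2 change 2.59 ± 0.0996, adjusted p = 3.69e-05) and 1.83-fold above NPC1 (log2 change 0.87 ± 0.0996, adjusted p = 0.00219).

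Actg2, the smooth muscle gamma-actin gene, was near the detection limit throughout. It had 5.53 and 5.68 in EpiSC, where neither array was well above background, 16.2 and 13.0 in NPC1, and 16.2 and 11.3 in NPC2. The NPC1 and NPC2 arrays overlapped and both lay above EpiSC. Against the lowest detectable signal of the EpiSC arrays, NPC1 was at least 1.55-fold higher and NPC2 at least 1.45-fold higher. Such a bound sets the bright group's mean against, on each dim array, the higher of the lowest signal well above background and the probe's own. The fit tests the measured values instead, a 2.42-fold difference of NPC2 from EpiSC (adjusted p = 0.00343), and Actg2 entered it only through the groups in which it was high. NPC2 and NPC1 did not pass the test of their difference (log2 change -0.10, 95% interval -0.612 to 0.419, adjusted p = 0.72). With normexp the day 2 rise no longer passed (log2 change 0.13, adjusted p = 0.0657; range over 14 alternatives 0.00222 to 0.0657).

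**Figure D1:**
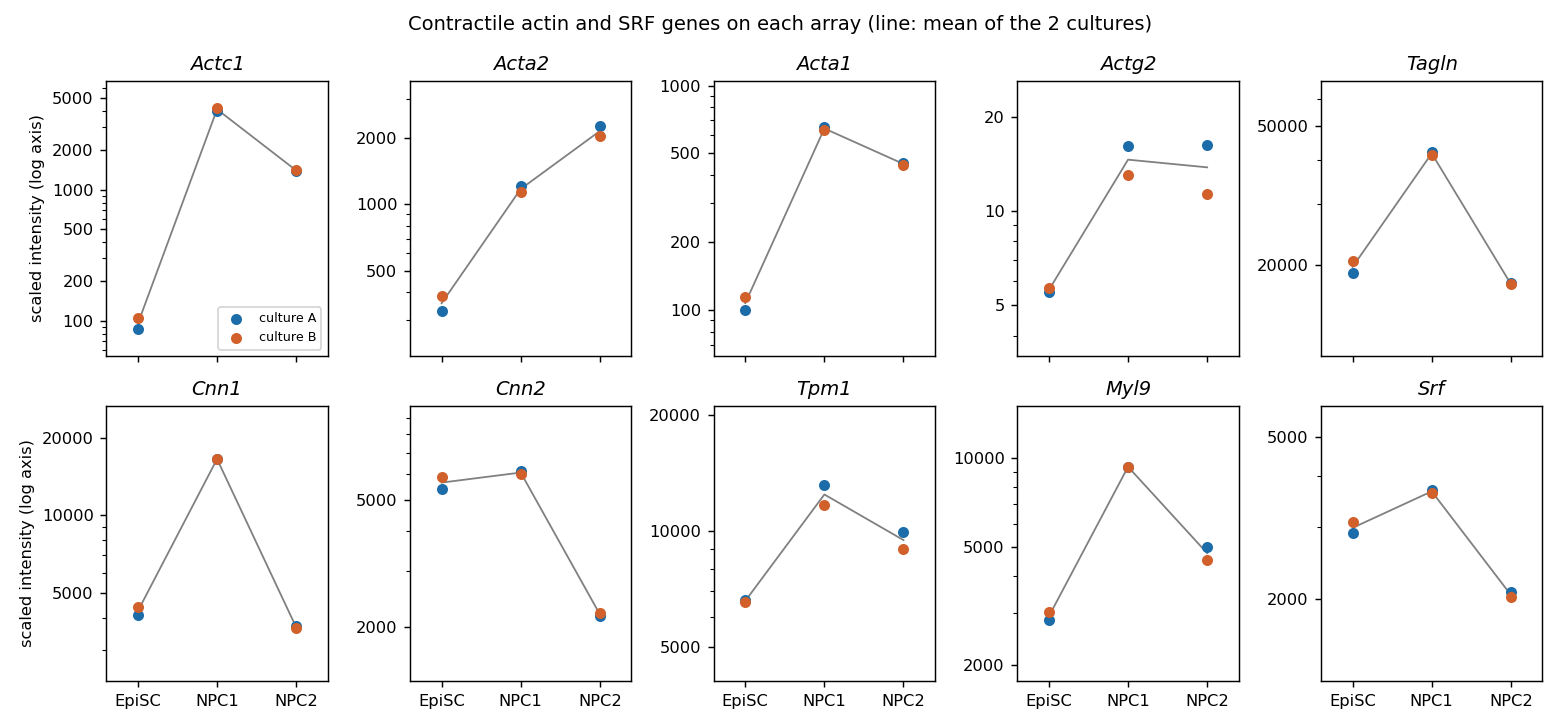
Scaled intensity (log axis, each panel with its own range) of the 10 genes on each array, with points for cultures A and B and a line through the mean of the 2 cultures of each group. Actc1 goes from 86.7 and 105 in EpiSC to 3999 and 4224 in NPC1, Acta2 alone is highest in NPC2, and Cnn2 is nearly level until it falls in NPC2.

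The muscle actins are near-identical in protein sequence to each other and to the cytoplasmic actins, and how far the probes tell them apart was not tested. The cytoplasmic actin genes, named here for this reason after their values were seen, did not follow Actc1. Actb had 254200 and 253700 in EpiSC, 261900 and 249600 in NPC1, and 215800 and 226500 in NPC2, and Actg1 had 216500 and 209100, 219300 and 197300, and 186300 and 191400. Neither passed the day 1 test (log2 change 0.01, adjusted p = 0.89 for Actb, and -0.03, adjusted p = 0.71 for Actg1).

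Tagln and Cnn1, which encode the actin-binding proteins transgelin (SM22 alpha) and calponin 1 of smooth muscle, were bright in every group and highest in NPC1. Tagln had 19080 and 20540 in EpiSC, 42080 and 41510 in NPC1, and 17760 and 17650 in NPC2. Cnn1 had 4115 and 4406, then 16510 and 16610, then 3720 and 3645. In both genes NPC1 stood far above both other groups, and NPC2 lay just under EpiSC without overlap. The day 1 changes were 2.11-fold for Tagln and 3.89-fold for Cnn1. From NPC1 to NPC2, Tagln fell 2.36-fold (adjusted p = 0.000135) and Cnn1 4.50-fold (log2 change -2.17 ± 0.0526, adjusted p = 5.34e-05), the largest day 2 fall among the 10.

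The small differences of these genes between NPC2 and EpiSC depended on the processing. Tagln was lower in NPC2 (log2 change -0.16, 95% interval -0.3 to -0.0219, adjusted p = 0.0456) but passed in only 4 of 15 alternatives, whose adjusted p ran from 0.0139 to 0.339. Of the 6 fits that left out 1 array, the one without EpiSC culture A alone kept the Tagln call (adjusted p = 0.0461), and the others gave 0.209 without EpiSC B, 0.0661 without NPC1 A or B, 0.129 without NPC2 A and 0.144 without NPC2 B. Cnn1 was lower (log2 change -0.21, 95% interval -0.346 to -0.0733, adjusted p = 0.0184) and passed in 10 of 15, with adjusted p from 0.00363 to 0.819. Leaving out EpiSC culture B ended the Cnn1 call (adjusted p = 0.0969), as did leaving out NPC2 culture A (0.0593) or B (0.083). In the value table the authors deposited, which scales the same intensities differently, both differences turned slightly positive, and under quantile normalization that of Tagln did.

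Myl9 encodes a regulatory light chain of non-muscle and smooth muscle myosin. It had 2828 and 3018 in EpiSC, 9321 and 9353 in NPC1, and 5021 and 4521 in NPC2. The groups did not overlap, and NPC2 lay between the others. The day 1 change was 3.20-fold. NPC2 was 1.63-fold above EpiSC (adjusted p = 0.000699) and 1.96-fold below NPC1 (adjusted p = 0.000524).

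Cnn2, the gene of the broadly expressed calponin 2, differed from Cnn1 in its course. Its brighter probe had 5419 and 5896 in EpiSC, 6133 and 6030 in NPC1, and 2171 and 2214 in NPC2. EpiSC and NPC1 were close (1.08-fold), and both NPC2 arrays were far lower. NPC2 was 2.58-fold below EpiSC (adjusted p = 4.76e-05) and 2.77-fold below NPC1 (adjusted p = 0.000113). The other probe had 2710 and 2803, 2860 and 2800, and 1125 and 1159, and its log2 changes against EpiSC were 0.04 on day 1 and -1.27 on day 2.

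Tpm1, the alpha-tropomyosin gene, gives many muscle and non-muscle isoforms by alternative promoters and splicing, and its 5 probes did not move together. The brightest on average, A_55_P2187038, had 6645 and 6540 in EpiSC, 13190 and 11720 in NPC1, and 9971 and 8989 in NPC2. A_55_P2187043, assigned in the files to the same transcript, NM_001164248, had 4418 and 4661, 8481 and 7876, and 6577 and 5939. On both probes the groups did not overlap and NPC1 was highest.

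The remaining Tpm1 probes did not show that day 1 rise. A_55_P2032192 (NM_001164249) had 7248 and 8110 in EpiSC, 6418 and 5880 in NPC1, and 3035 and 3079 in NPC2, so it was highest in EpiSC. A_55_P2078680 (NM_001164251) had 4258 and 4713, 4728 and 4408, and 2690 and 2517. A_55_P2187053 (NM_001164255) had 817 and 784, 855 and 767, and 729 and 727, with EpiSC and NPC1 overlapping as on the probe before.

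In the fit of every probe, adjusted over 33532 probes, 2 of the 5 Tpm1 probes were higher in NPC2 than in EpiSC, 2 were lower and 1 did not pass, where 23.9% of all probes were higher and 30.7% lower. The log2 changes were 0.52 (adjusted p = 0.0073) for A_55_P2187038 and 0.46 (adjusted p = 0.00799) for A_55_P2187043. They were -1.33 (adjusted p = 0.00035) for A_55_P2032192, -0.78 (adjusted p = 0.00156) for A_55_P2078680 and -0.14 (adjusted p = 0.177) for A_55_P2187053. The value for the gene therefore turned with the rule for its probes. With the brightest probe NPC2 was 1.44-fold above EpiSC (adjusted p = 0.00378 in the fit by gene), and with the mean of the 5 probes it was lower (log2 change -0.25, adjusted p = 0.0219; range over 15 alternatives 6.83e-05 to 0.0236). The day 1 log2 change was 0.92 with the brightest probe and 0.30 with the mean. From NPC1 to NPC2 the brightest probe fell 1.31-fold (adjusted p = 0.0163), a call lost without NPC1 culture A (adjusted p = 0.0554), without NPC2 culture B (0.0729) and under quantile normalization (0.0601).

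**Figure D2:**
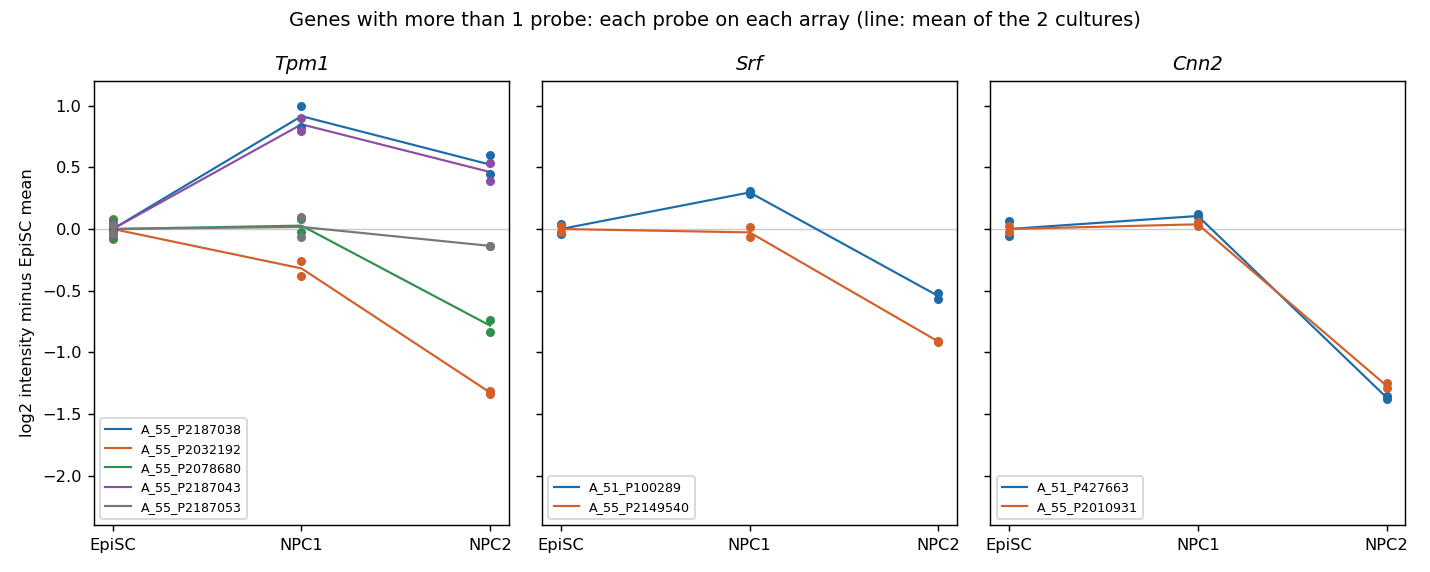
Log2 intensity minus the EpiSC mean for each probe of Tpm1, Srf and Cnn2, with 2 points (cultures A and B) a group and a line through the means. The Tpm1 probes A_55_P2187038 and A_55_P2187043 rise by 0.92 and 0.85 on day 1 while A_55_P2032192 goes to -0.32, and all Srf and Cnn2 probes are lowest in NPC2.

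Srf itself moved little on day 1 and fell on day 2. Its brighter probe had 2901 and 3084 in EpiSC, 3711 and 3637 in NPC1, and 2082 and 2022 in NPC2, with no overlap between groups. The other probe had 2487 and 2585, 2559 and 2418, and 1351 and 1342, and on it EpiSC and NPC1 overlapped. Both probes were lowest in NPC2. The day 1 log2 changes of these probes were 0.30 and -0.03. By the brighter probe NPC2 was 1.46-fold below EpiSC (adjusted p = 0.000637) and 1.79-fold below NPC1 (adjusted p = 0.000342), and by the other the log2 changes were -0.91 (adjusted p = 0.00037) and -0.89 (adjusted p = 0.000952).

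Counted over the 10 genes, 9 had their highest mean in NPC1 and 1, Acta2, in NPC2, where 18.7% of all tested genes were highest in NPC1. On day 1, 7 were measured at least 2-fold higher than in EpiSC and 0 at least 2-fold lower, where 4.77% of all tested genes were at least 2-fold higher and 4.11% at least 2-fold lower. The 7 include Actg2, whose bound is at least 1.55-fold, and the count was 6 to 8 over the alternatives. The choice of genes rests on that contrast, so nothing is read from these counts. The median log2 change of the 10 genes was 1.52, and that of all tested genes -0.0541.

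On day 2 against EpiSC the genes parted. The 6 higher genes were Actc1, Acta2, Acta1, Actg2, Myl9 and Tpm1, and the 4 lower ones Cnn2, Srf, Cnn1 and Tagln. Of all tested genes 28.3% were higher and 40.7% lower in that comparison. By the deposited value table and under quantile normalization 6 were higher and 2 lower, and with normexp 5 and 3. The median log2 change was 0.614 for the 10 genes (0.335 to 0.837 under the other corrections and scalings) and -0.0982 for all genes. From NPC1 to NPC2, 8 of the 10 fell, Acta2 rose and Actg2 did not pass, where 20.8% of all tested genes were higher and 26.6% lower, and the medians were -0.905 and -0.0428.

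**Figure D3:**
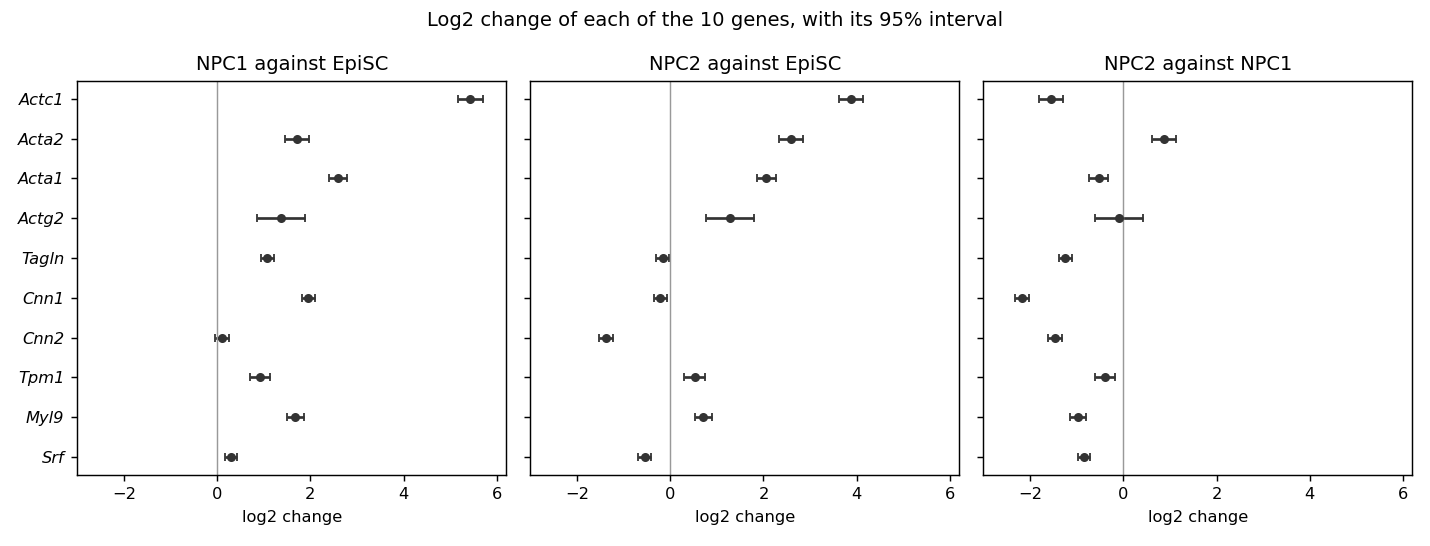
Log2 change of each of the 10 genes (1 probe a gene) in the 3 comparisons, with bars for the 95% interval of limma's fit. Actc1 stands at 5.43 in NPC1 against EpiSC, and in NPC2 against NPC1 Acta2 alone lies to the right of 0 with its whole interval; the Actg2 values against EpiSC rest on arrays not well above background.

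Among other known SRF targets of the cytoskeleton and contractile machinery, more were lower than higher on day 2. Of 31 listed, 29 were tested. On day 1, 4 were higher and 11 lower, with a median log2 change of -0.197, where 21.3% of all tested genes were higher and 29% lower, and by the values the authors deposited 6 were higher and 6 lower. On day 2 against EpiSC, 3 were higher and 21 lower (median -0.657), and from NPC1 to NPC2, 2 were higher and 21 lower (median -0.621). Ccn2, a matricellular protein gene that also responds to YAP and TEAD, had 7316 and 7752 in EpiSC, 2600 and 2573 in NPC1, and 657 and 587 in NPC2. The related Ccn1 had 7087 and 7072, 3887 and 3672, and 871 and 807. Both fell on each day, with log2 changes against EpiSC of -1.54 and -3.60 for Ccn2 and -0.91 and -3.08 for Ccn1 (adjusted p on day 2 = 1.02e-05 for both).

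Fhl2, which encodes a LIM protein of heart muscle that binds SRF, fell on day 1 (1142 and 1208 to 456 and 485, log2 change -1.32, adjusted p = 0.000184). Ankrd1, a cardiac ankyrin repeat gene, had fallen by 2.69 on the log2 scale on day 2 (adjusted p = 0.000998). In the other direction, Des, the muscle intermediate filament gene desmin, rose from 170.3 and 187 in EpiSC to 258 and 273 in NPC1 (log2 change 0.57, adjusted p = 0.00242). Mylk, which encodes the kinase of myosin regulatory light chains, was not well above background in EpiSC or NPC1 and had 63.8 and 92.5 in NPC2. That was at least 8.2-fold above EpiSC and at least 8.78-fold above NPC1. The fit's adjusted p of 0.00087 and 0.00125 belong to the larger measured differences, and Mylk entered it only through NPC2.

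Immediate early SRF targets passed the test only as lower. Of 11 listed, 10 were tested, and by limma 0 were higher in each of the 3 comparisons, also 0 at an unadjusted p under 0.05. On day 1, 5 were lower (median log2 change -0.565), on day 2 against EpiSC 9 were lower (median -1.13), and from NPC1 to NPC2 8 were lower (median -0.984). The shares of all tested genes that were lower in these comparisons were 29%, 40.7% and 26.6%. Egr1, a zinc finger transcription factor gene, had 2054 and 2147 in EpiSC, 1114 and 1169 in NPC1, and 346 and 327 in NPC2. Its log2 changes against EpiSC were -0.88 (adjusted p = 0.000515) and -2.64 (adjusted p = 1.14e-05). Junb, an AP-1 subunit gene, had 89.9 and 104 in EpiSC, 49.2 and 51.4 in NPC1, and 13.4 and 11.9 in NPC2. On day 2 Junb had fallen by 2.94 on the log2 scale and Arc by 3.11.

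Of 22 listed genes of SRF's cofactors and upstream regulators, 21 were tested, and 16 of them did not pass on day 1. On day 1, 2 were higher and 3 lower (median log2 change -0.0191). The balance turned with the scaling: 5 and 2 under quantile normalization (median 0.0202), 6 and 1 by the value table (median 0.105), and 1 and 6 under median scaling (median -0.119). On day 2 against EpiSC, 2 were higher and 8 lower (median -0.17), with 6 and 6 by the value table (median 0.0528) and 2 and 12 under median scaling (median -0.253). Over all tested genes 21.3% were higher and 29% lower on day 1, and 28.3% and 40.7% on day 2. Elk3, a ternary complex factor gene, had 394 and 423 in EpiSC, 163.6 and 177 in NPC1, and 219 and 228 in NPC2. It was lower on both days (log2 change -1.26, adjusted p = 0.00032, and -0.87, adjusted p = 0.00029). Diaph1, which encodes a formin that polymerises actin, was lower on day 2 (log2 change -1.33, adjusted p = 0.00176). Going the other way, Rhob was higher on day 1 (log2 change 0.55). That call was lost under median scaling (limma adjusted p = 0.059) and quantile normalization (0.0528). It was also lost with no filter on dim probes (0.0851), every probe fitted on its own (0.0649) and the culture letter as a block (0.0618). Leaving out any EpiSC or NPC2 array ended it too (log2 change 0.54 to 0.56). From NPC1 to NPC2 Rhob fell (log2 change -0.64), a call lost by the value table (0.0558) and with no filter on dim probes (0.0607). Without any 1 of the EpiSC or NPC2 arrays this fall did not pass either (log2 change -0.57 to -0.71). Scai was higher in NPC2 than in EpiSC (log2 change 0.79), a call lost under quantile normalization (0.0525). The Scai call was also lost with no filter on dim probes (0.0628) and the culture letter as a block (0.0582). Each fit without an EpiSC or NPC2 array lost it as well (log2 change 0.64 to 0.94).

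The coactivator genes are given for their role, chosen after their values were seen. Mrtfa had 2143 and 2153 in EpiSC, 2293 and 2201 in NPC1, and 2233 and 2214 in NPC2, and passed no test (adjusted p = 0.287 on day 1). Mrtfb had 1216 and 1226, 1325 and 1348, and 1607 and 1700, and was higher on day 2 than in EpiSC (log2 change 0.44, adjusted p = 0.00109). Myocd, the gene of myocardin of heart and smooth muscle, had 34.2 and 41.5, 43.9 and 48.1, and 25.6 and 32.2. Its day 1 difference did not pass (log2 change 0.29, adjusted p = 0.173). It was lower in NPC2 than in NPC1 (log2 change -0.68, adjusted p = 0.0182; range over the settings 0.00297 to 0.0843), a call lost without NPC1 culture A (0.0536) or B (0.0843) or NPC2 culture A (0.0654).

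**Figure D4:**
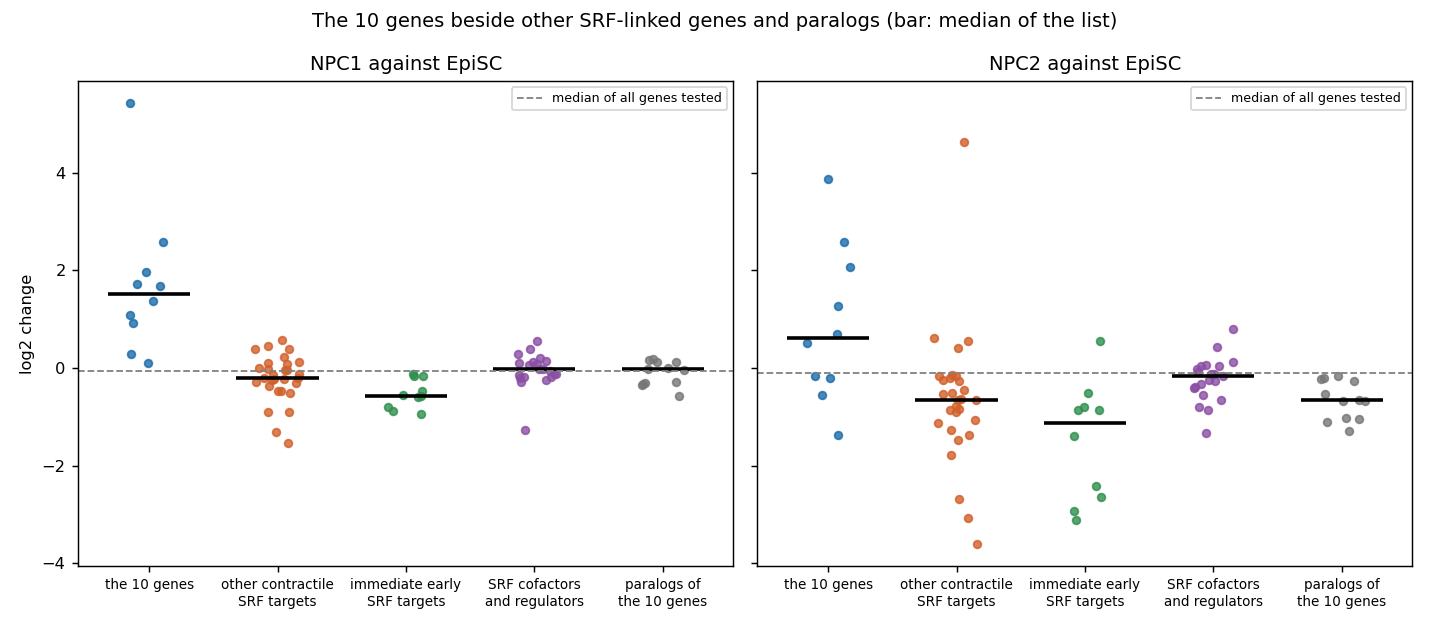
Log2 change of each tested gene in NPC1 (left) and NPC2 (right) against EpiSC for the 10 genes, other contractile SRF targets, immediate early SRF targets, SRF cofactors and upstream regulators, and paralogs, with a bar at each list's median and a dashed line at the median of all tested genes. On day 2 the median is 0.614 for the 10 genes, -0.657 for the other contractile targets and -1.13 for the immediate early targets, and that of the cofactors, -0.17, turns positive under the authors' value table; the highest point of the contractile targets is Mylk, which was not well above background in EpiSC.

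Paralogs of the 10 genes from the actin, transgelin, calponin, tropomyosin and myosin light chain families were all 12 tested. On day 1, 1 was higher and 4 lower (median log2 change -0.0266), with 4 and 5 under quantile normalization (median 0.017) and 4 and 4 by the value table (median 0.0971). On day 2 against EpiSC, 0 were higher and 11 lower (median -0.664), and from NPC1 to NPC2 again 0 and 11 (median -0.445). At an unadjusted p under 0.05, limma likewise had 0 paralogs higher in these day 2 comparisons, and 3 higher on day 1. Among all tested genes the shares lower were 29%, 40.7% and 26.6% in the 3 comparisons, and those higher 21.3%, 28.3% and 20.8%. Tagln2, the transgelin gene of non-muscle cells, had 21720 and 22830 in EpiSC, 25280 and 23340 in NPC1, and 9285 and 8871 in NPC2. Its EpiSC and NPC1 arrays lay close together, and NPC2 was lower (log2 change against EpiSC -1.29, adjusted p = 7.24e-05). Myl12a, a regulatory light chain gene related to Myl9, was lower on both days (log2 change -0.31, adjusted p = 0.00609, and -1.10, adjusted p = 5.2e-05), where Myl9 was higher on both.

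Markers of cell types that make contractile proteins were measured beside these genes. In bulk RNA, fewer cells of a type and less RNA per cell cannot be told apart. A summed intensity weighs the brightest genes of a list most, such as Tnnc2 among the skeletal markers, so it need not show a change across the list. The counts of markers that passed stand against 21.3% of all tested genes higher and 29% lower on day 1, and 28.3% higher and 40.7% lower on day 2 against EpiSC. The summed scaled intensity of 20 cardiac muscle markers was 1510 to 1590 in EpiSC, 3230 to 3350 in NPC1 and 2060 to 2310 in NPC2. Of the 13 tested, 6 were higher and 1 lower on day 1, and 7 were higher and 4 lower on day 2. Myl7, Tnni1, Mybpc3, Ryr2, Pln and Tbx5, which include defining genes of cardiomyocytes, were well above background on no array.

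Among the cardiac markers, Myl3, a myosin essential light chain gene of heart and slow muscle, came nearest to Actc1. It had 96.6 and 106 in EpiSC, 999 and 1094 in NPC1, and 507 and 480 in NPC2, a day 1 log2 change of 3.37 (adjusted p = 7.12e-05). Myl4, the atrial light chain gene, had 55.1 and 63.4, 482 and 483, and 875 and 683, so that, as with Acta2, its NPC2 arrays were the highest (log2 change against EpiSC 3.71, adjusted p = 3.32e-05). Myh7, a cardiac and slow muscle myosin heavy chain gene, rose by day 1 (log2 change 2.02, adjusted p = 9.6e-05), as did Tnnc1, the cardiac troponin C gene (1.29, adjusted p = 0.00229). The 1 cardiac marker lower on day 1 was Tnnt2, the cardiac troponin T gene, named here for that reason. It was not well above background in NPC1, at least 2.44-fold below EpiSC (limma adjusted p = 0.00681 for the measured values). Other cardiac genes were lower on day 2. Myh6, the alpha myosin heavy chain gene, went from 832 and 875 in EpiSC to 196.9 and 164.6 in NPC2 (log2 change -2.25, adjusted p = 9.9e-05), and Nppb, a natriuretic peptide gene, from 153 and 171 to 31.1 and 29.0 (-2.43, adjusted p = 2.58e-05).

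The summed level of 16 skeletal muscle markers was 4970 to 5510 in EpiSC, 8330 to 8800 in NPC1 and 3320 to 3430 in NPC2. Of the 9 tested, 3 were higher and 2 lower on day 1, and 3 and 3 on day 2. The myogenic factor genes Myod1, Myog, Myf5 and Myf6, and Ckm and Mylpf, were well above background on no array. Tnnc2, the fast troponin C gene, had 1125 and 1252 in EpiSC, 3521 and 3402 in NPC1, and 569.8 and 498 in NPC2. Its NPC1 arrays were the highest and its NPC2 arrays the lowest (log2 changes against EpiSC 1.54, adjusted p = 0.000407, and -1.16, adjusted p = 0.000311). Tnni2, the fast troponin I gene, rose by day 1 (log2 change 1.54, adjusted p = 0.000788). Tnnt3, the fast troponin T gene, was lower on day 1 (log2 change -0.99). That call was lost by the value table (limma adjusted p = 0.0596), with no filter on dim probes (0.0729) and with every probe fitted on its own (0.0542). Leaving out any EpiSC or NPC2 array ended it too (log2 change -0.88 to -1.10). Pax3 and Pax7, listed as muscle progenitor markers and also known in the dorsal neural plate, were high only in NPC2, at 389 and 379 for Pax3 and 129 and 131 for Pax7. Pax7 was at least 13.9-fold above EpiSC (limma adjusted p = 0.000225 for the measured values), and it entered the fit only through NPC2.

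**Figure D5:**
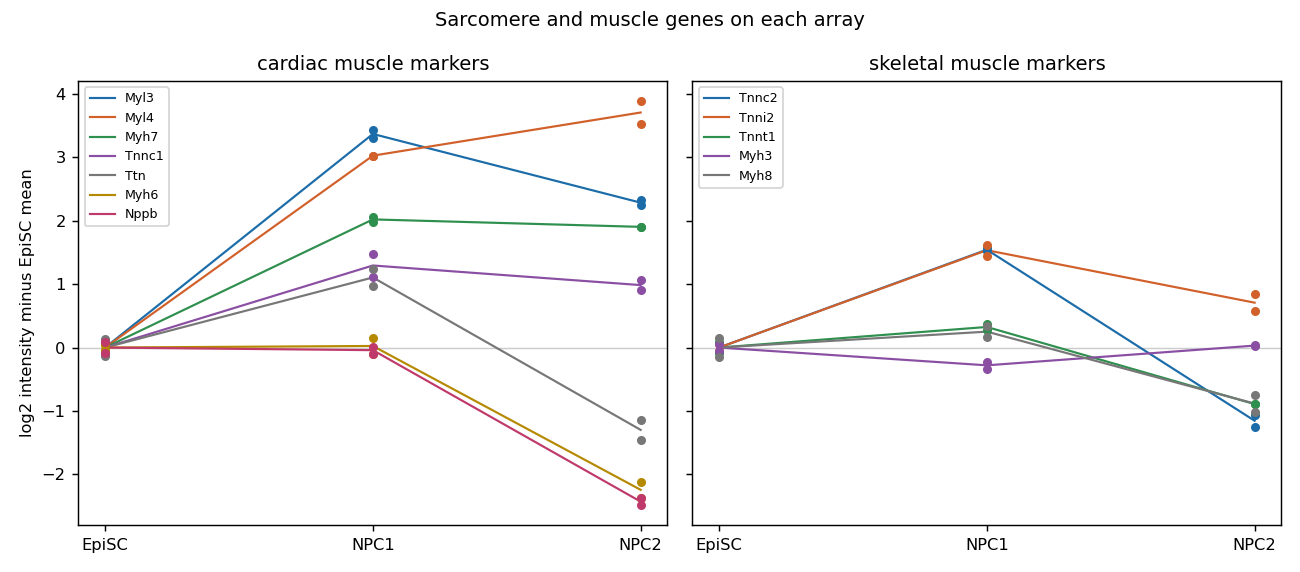
Log2 intensity minus the EpiSC mean of named cardiac (left) and skeletal (right) muscle genes, with 2 points (cultures A and B) a group and a line through the means. Myl3 rises by 3.37 on day 1, Myl4 is at 3.71 on day 2, and Myh6 and Nppb are at -2.25 and -2.43 on day 2. Tnnt2 and Tnnt3, both lower on day 1, are not drawn.

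Smooth muscle markers beyond the 10 genes had a summed level of 4760 to 4780 in EpiSC, 4110 to 4140 in NPC1 and 3530 to 3760 in NPC2 over 10 genes. Most of each sum was 1 gene, Smtn, an actin-binding protein gene, with 4315 and 4290 in EpiSC, 3732 and 3669 in NPC1, and 3286 and 3039 in NPC2. Of the 7 tested, 1 was higher and 2 lower on day 1, and Lmod1 and Pln were well above background on no array. The lists overlap: Myh11, Smtn, Des, Synpo2 and Mylk were counted among the other contractile SRF targets too, and Pln is also a listed cardiac marker. Itga8, an integrin gene of smooth muscle and mesenchyme, fell by 1.39 on the log2 scale on day 1 (adjusted p = 0.00134). The 16 fibroblast and feeder markers summed to 3500 to 3690, 4440 to 4600 and 5390 to 5660, rising in the same order of groups as Acta2. The summed level of the 7 neural plate markers rose in that order too, at 10100 to 10400, 13100 to 13300 and 26200 to 26500. Of the 14 fibroblast and feeder markers tested, 2 were higher and 3 lower on day 1, and 7 and 3 on day 2. The 7 include Pdgfra, Postn and Prrx1, none of them well above background in EpiSC. Lum and Fap were well above background on no array. Pdgfra, a growth factor receptor gene of mesenchyme, was at least 11.5-fold higher in NPC2 than in EpiSC (limma adjusted p = 0.000131 for the measured values). Pdgfra entered the fit only through NPC2. In the same comparison S100a4, a fibroblast marker, fell by 3.22 on the log2 scale (adjusted p = 1.42e-05). The 11 mesoderm markers summed to 7250 to 7520, 4710 to 4970 and 4050 to 4580. Of the 8 tested, 0 were higher by limma (also 0 at an unadjusted p under 0.05) and 6 lower on day 1. The 6 include Hand1 and Mixl1, which entered the fit only through EpiSC. T, the brachyury gene, had 1509 and 1410 in EpiSC, 83.2 and 85.0 in NPC1, and 60.5 and 64.7 in NPC2. The part of any of these cell types in the values of the 10 genes was not tested.

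The genes most like Actc1 across the 6 arrays were ranked by Pearson's r on the log2 scale, among 2542 genes well above background on all arrays whose group means spanned at least 1. The 6 arrays fall into 3 pairs of duplicates, so r is given as a description. The first 6 were Celf3 (0.9991), Sh3bgr (0.9989), Myl3 (0.9989), Cxcl12 (0.9974), Tubb3 (0.9969) and Adgrb2 (0.9963). Of the 10 genes, Acta1 had 0.9958, in place 8, and Myl9 0.9426, in place 98. Acta2 had 0.8148, Cnn1 0.6568, Tagln 0.6325 and Cnn2 -0.1759, while Actg2, Tpm1 and Srf did not meet the conditions for the ranking. Celf3, an RNA-binding protein gene known from neurons, had 30.2 and 30.7 in EpiSC, 162.6 and 156.5 in NPC1, and 96.5 and 100.3 in NPC2. Tubb3, the neuronal beta-tubulin gene, had 792 and 826, 3761 and 3300, and 2205 and 2359. Sh3bgr had 306 and 335, 1020 and 1040, and 697 and 744, and Cxcl12 had 337 and 335, 1025 and 1067, and 739 and 812. Adgrb2 had 1562 and 1555, 4144 and 4248, and 2903 and 3036. All 6 had NPC1 highest and NPC2 between the other groups, in the order of Actc1 and Acta1.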

How the data were processed

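Arrays of 6 cultures, 2 each of EpiSC, NPC1 and NPC2, were analysed. Per the file headers, Agilent Feature Extraction 10.10.1.1 (protocol GE1_1010_Sep10) made the processed intensity of a spot, which is linear, has its background subtracted and is unscaled across arrays. The value table the authors deposited is linear and uncentred: it holds this intensity times 1 constant an array, 2.101 to 2.415, of unknown origin. Column medians ran from 51.3 to 65.3.

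Control and outlier-marked spots were left out (35 probes lost) and spots of a probe averaged. Probes were named by RefSeq accession: 26738 of 55646 had 1 symbol, 0 several. Log2 processed intensities were centred on each array's 75th percentile. A gene took its brightest probe among those detected, that is well above background on both arrays of some group. Limma 3.58.1 in R 4.3.3 fitted all 6 arrays on 3 groups, two-sided (residual degrees of freedom 3, prior 1.88), with Benjamini-Hochberg adjustment at 0.05 over 14768 genes. The fit was tested on simulated data. The alternatives, 15 in number, changed background correction, scaling, filter, probe rule, replicate block or left out an array; normexp used the median spot intensity with its local background. Named from other lists were up to 4 called genes of largest change a comparison, and the 6 genes most like Actc1; exceptions are marked. The genes and lists were chosen with earlier results of these data known. There were 0 columns of samples outside the series.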

Additional observations from a re-analysis of the deposited data

How the results depend on the processing

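Of the genes' tested values on day 2, 131 of 149 comparisons with EpiSC and 146 of 149 with NPC1 over the alternatives kept their call. That is the side of the threshold and, where either fit passed, the direction. Actg2 against NPC1 passed in no fit and changed sign, from -0.096 to 0.0046 by the value table. It was at 0.060 without NPC1 culture A and 0.16 without NPC2 culture B. Calls that reversed were all against EpiSC. Tagln was at 0.11 (quantile, limma adjusted p = 0.135) and 0.063 (value table, 0.339). Cnn1 was at 0.014 (value table, 0.819) and Tpm1 at -0.25 (mean of probes, 0.0219). The mean of probes draws on the probes that fell. The value table holds the same intensities times 1 constant an array, which moved the median log2 change of NPC2 against EpiSC by 0.2235. For the turn of Tagln under quantile normalization the cause was not tested.

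Without EpiSC culture B, 4880 genes passed for NPC1 against EpiSC, against 7429 with all arrays. Leaving out an array in turn gave 4880 to 6711, 8560 to 10273 for NPC2 against EpiSC and 5020 to 6115 for NPC2 against NPC1. The letters A and B did not pair the arrays (correlations of deviations 0.00806, 0.00653 and -0.0449). With the culture letter as a replicate block 6864, 9870 and 6474 genes passed, against 7429, 10193 and 7011 without it. The slide could not be fitted as a block, since all arrays lay on 1 slide scanned once. The share of calls that were lower was 57.7%, 59.0% and 56.1% in the 3 comparisons, 37.9%, 38.8% and 41.0% by the value table, which moved the median of all genes by 0.1237, 0.2235 and 0.09982, 71.0% and 65.6% in the first comparisons under median scaling, and 48.6% and 49.4% under quantile normalization. Signal over background limits Actg2, left out where all 6 arrays had to be well above background.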
